A study of Mus musculus with 6 samples.

Results

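The genes described here form the amino acid stress response of the cell, together with the enzymes of serine and folate metabolism that it feeds. They comprise targets of ATF4 and of the unfolded protein response, the enzymes of serine synthesis, the mitochondrial and cytosolic folate enzymes, and transporters and enzymes that handle cysteine, serine and proline. The list holds 38 genes, of which 36 had a probe set carrying their symbol alone, out of 18193 genes measured in that way. Gdf15 and Pycr1 did not have one. The genes were chosen by measured values: the list was proposed from the difference between induced and uninduced cultures in these same arrays, in which Aldh1l2 and Fgf21 leaned lower. That difference is therefore given below as a description, with no test of the list. Where a gene had several probe sets, the brightest one on average was taken.

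Expression was measured in undifferentiated mouse embryonic stem (ES) cells of the EBRTcH3 (EB3) line, kept in LIF, in which a human GTF2IRD2 coding sequence had been placed at the ROSA26 locus under a tetracycline-repressible promoter. Clones A3, A4 and A5 were each grown once with tetracycline (uninduced, 0 hours) and once for 24 hours without it (induced), giving 3 arrays per group and 6 in all. All 6 arrays come from cells that carry the transgene, so that a culture without tetracycline and a culture making the human factor cannot be told apart. RT-PCR values in the study's supplement show the GTF2IRD2 transcript rising between 0 and 24 hours in each of the 3 clones. The insert printed for GTF2IRD2 in that supplement is much shorter than the others printed there. The paper itself states that the longest annotated coding sequence of each gene was used, with a 3xFLAG tag. Whether the clones make the whole factor is not known here. Values are log2 intensities, on which a difference of 1 is 2-fold. Every p-value of induction reflects no more than the variation among these 3 clones and their cultures. In the tests between clones, the spread is that left within clones once induction is taken out. Each clone gave a single pair of arrays, so that a clone and the history of its cultures cannot be told apart. In bulk RNA, fewer cells of a type and less RNA per cell cannot be told apart.

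The arrays had medians of 5.03 to 5.06. All 10 ES cell markers had values of 10.18 to 13.93, and 0 of them passed the test between clones or with induction. Markers of primitive endoderm, mesoderm, neural ectoderm, trophoblast and fibroblasts lay between 2.44 and 8.59, and no probe set was at 0. The signal of the 3′ probe set of 18S ribosomal RNA ranged from 7.81 to 12.05 and was highest in uninduced A5.

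As background, ATF4 is the transcription factor whose translation rises when kinases such as GCN2 (Eif2ak4) or PERK (Eif2ak3) phosphorylate the initiation factor eIF2. GCN2 senses uncharged transfer RNA and PERK senses unfolded protein in the endoplasmic reticulum (ER). ATF4 pairs with C/EBP proteins on a composite DNA element and raises genes for amino acid uptake, asparagine and serine synthesis and the mitochondrial folate pathway. In that pathway serine donates a carbon unit to folate, and the unit leaves the mitochondrion as formate for purine and thymidylate synthesis. Mouse ES cells are known for their demand on threonine and one-carbon metabolism.

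The promoters of the listed genes were read because a shared element is the best known link between them. RefSeq windows of 300 bases, from 250 before to 50 after the transcript start (GRCm38.p6), were found for 34 of the 38 genes and not for Cth, Atf6, Slc7a5 and Aldh1l2. The C/EBP-ATF response element, searched as TGATGNAAN on both strands, stood in 9 of these 34 genes (26.5%) and in 4.5% of all 27025 genes with a window. It was found in Asns, Chac1, Fgf21, Herpud1, Nupr1, Pycr1, Slc1a4, Slc7a11 and Trib3. The sites of the 8 measured genes are given below in the direction of the gene, with the element in capitals, which reads as its reverse complement where it lies on the opposite strand.
Chac1 (chr2:119351038-119351066, plus strand, 194 bases before the start): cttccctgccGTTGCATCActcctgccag
Fgf21 (chr7:45615612-45615640, minus strand, 140 bases before the start): agacccccccATTGCATCAtccgtccagg
Nupr1 (chr7:126625563-126625591, minus strand, 111 bases before the start): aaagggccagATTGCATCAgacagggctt
Herpud1 (chr8:94386306-94386334, plus strand, 113 bases before the start): accacggcggGTTGCATCAgcccgcaccc
Asns (chr6:7693214-7693242, minus strand, 23 bases before the start): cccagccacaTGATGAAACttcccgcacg
Slc1a4 (chr11:20332700-20332728, minus strand, 5 bases before the start): tgcctcctgcGTTGCATCAtctccagcct
Trib3 (chr2:152344029-152344057, minus strand, 13 bases after the start): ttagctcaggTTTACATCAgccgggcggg
Slc7a11 first site (chr3:50443661-50443689, minus strand, 66 bases before the start): ctcatgtggcTGATGCAAAcctggagaat
Slc7a11 second site (chr3:50443643-50443671, minus strand, 48 bases before the start): acctggagaaTTTGCATCAtcatgcagcc

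The ER stress response element, which pairs CCAAT with CCACG at a spacing of 9 bases, stood in Calr and in Hsp90b1, which held it at 2 sites (5.88% of the 34 genes, 0.137% of all). Both genes encode chaperones of the ER, and for Hsp90b1 the copy nearer to the start is shown. The element TGACGTGG stood in 0 of the 34 genes (0.714% of all) and the cyclic AMP response element TGACGTCA in 1, Ppp1r15a (2.03% of all). A match is a description of these letters and no evidence of binding.
Calr (chr8:84847070-84847098, minus strand, 162 bases before the start): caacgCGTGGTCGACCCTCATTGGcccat
Hsp90b1 (chr10:86705528-86705556, minus strand, 107 bases before the start): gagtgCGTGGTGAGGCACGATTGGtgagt

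The clones were compared first, because the list was proposed from the induction difference and not from clone values. Earlier results of these data were, however, known when it was chosen. The clone term of a limma model with clone and induction called 1 of the 36 genes, Atf5, at an adjusted p under 0.05, against 3.09% of all genes. Atf5 encodes a transcription factor related to ATF4 that is itself translated under stress. Its expression in uninduced and induced cells was 7.5 and 7.31 for A3, 8.02 and 8.07 for A4, and 8.21 and 8.06 for A5. Both A3 arrays lay below all 4 others, whereas A4 and A5 overlapped. The clone means were 7.41, 8.04 and 8.13, a range of 0.73 or 1.66-fold (limma F-test, adjusted p = 0.0129). A3 was lower than A4 by 0.64 ± 0.09 (SE, adjusted p = 0.0129 in limma) and lower than A5 by 0.73 ± 0.09 (adjusted p = 0.0105), while A4 minus A5 was -0.09 ± 0.09 (adjusted p = 0.885). The call rests on both A3 arrays: it was lost in limma without uninduced A3 (adjusted p = 0.0520), without induced A3 (0.135) and without the whole clone (0.906, range 0.09). Atf5 is represented by a single probe set.

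Xbp1, which encodes the factor made active by IRE1 splicing in the unfolded protein response, also differed between A3 and A4. Its values were 11.01 and 11.02 for A3, 11.40 and 11.49 for A4, and 11.18 and 11.33 for A5. The 3 clones did not overlap, with A3 lowest and A4 highest. The clone term missed the threshold (adjusted p = 0.0965 in limma), whereas A3 minus A4 passed it at -0.42 ± 0.09 (adjusted p = 0.0418). Another of its 4 probe sets, with clone means of 8.91, 9.43 and 9.19, passed the clone term as well (adjusted p = 0.0415). Over the list, A3 and A4 differed in 2 of 36 genes (4.07% of all genes), A3 and A5 in 1 (2.37%) and A4 and A5 in 0 (0.0715%).

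The other 34 genes did not pass either test. The median range of clone means was 0.16 in the list and 0.15 over all genes. The lowest adjusted p after Atf5 and Xbp1 belonged to Psph, the last enzyme of serine synthesis, with clone means of 10.37, 10.69 and 10.72 (adjusted p = 0.129 in limma). Nupr1, a small stress-induced chromatin protein, had 9.14, 9.39 and 9.50 (0.150). Cth, which makes cysteine from cystathionine, had its highest mean in A3, at 12.24 against 11.88 and 12.04 (0.159), as did the ER disulfide isomerase Pdia4, at 8.34 against 8.03 and 8.02 (0.164). A3 was thus the lowest clone in some of these genes and the highest in others. Across the list A3 was lowest for 17 genes, A4 for 14 and A5 for 5, against 7460, 6068 and 4665 of all 18193 genes. A3 was highest for 9, A4 for 6 and A5 for 21, against 6292, 6444 and 5457. These counts were not tested.

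Markers of other cells also differed between clones, beside these results. Eomes, a mesoderm and endoderm regulator, had means of 6.01, 6.88 and 6.64 for A3, A4 and A5 (limma F-test, adjusted p = 0.0107), the same order as Xbp1. The 4 mesoderm markers summed to 21.73, 23.04 and 22.86 in the same order, with 1 of 4 called, against 3.09% of all genes for this test. Of 7 primitive endoderm markers 2 were called, Dab2, highest in A5, and Lama1, highest in A3, and the list summed to 39.53, 39.22 and 41.17. The part of these cells in the values of Atf5 and Xbp1 was not tested.

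**Figure D1:**
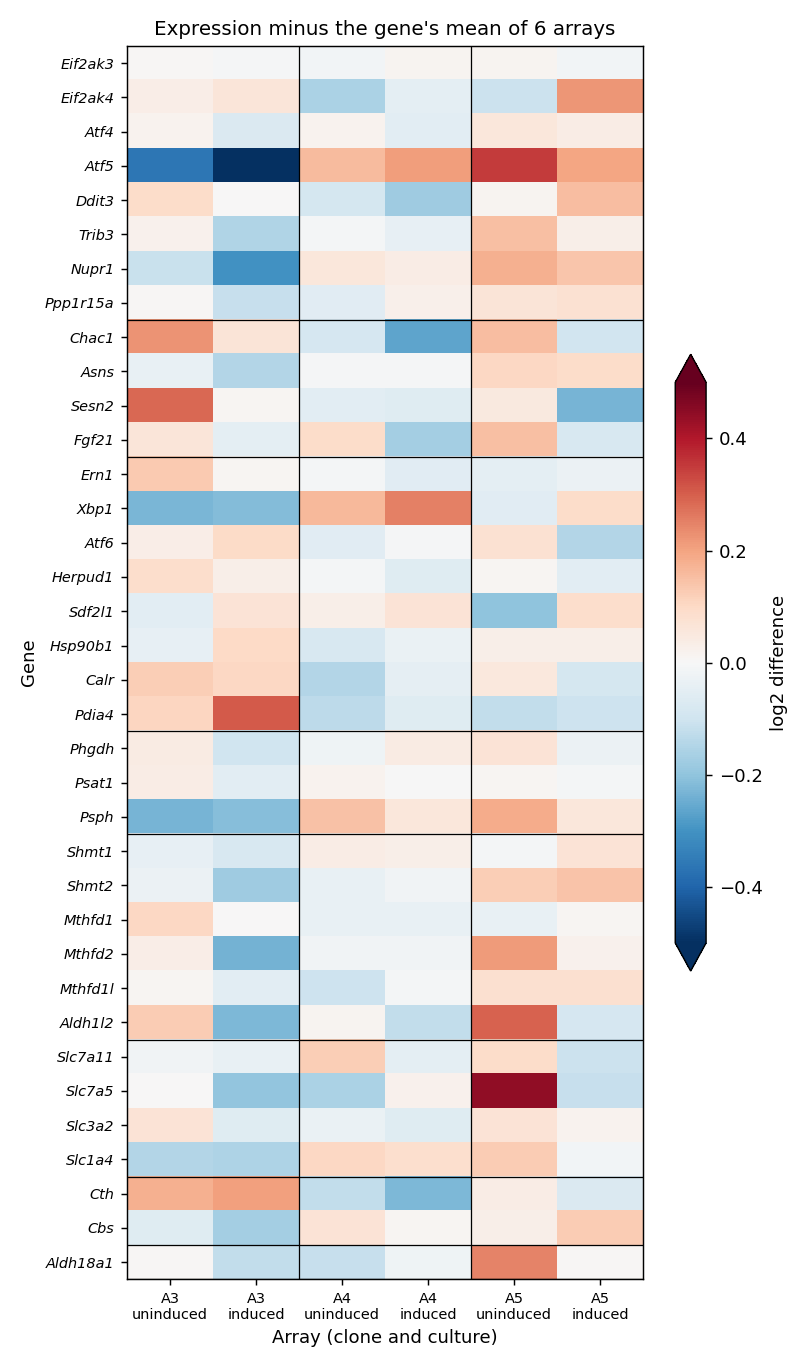
Expression of the 36 measured genes in each of 6 arrays (columns, by clone and culture) as the log2 difference from that gene's mean over the arrays; colours saturate at 0.5 in either direction and black lines separate clones and gene groups. Atf5 is the one row with both A3 arrays far below the rest, with clone means of 7.41, 8.04 and 8.13.

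Induction was described next. With limma, 0 of the 36 genes passed the threshold, as for all genes (0%), and the smallest adjusted p in the list was 1.00. At an unadjusted p under 0.05, 2 genes were lower and 0 higher (1.43% and 0.929% of all genes). With the clone as a replicate block in limma 0 genes passed. There 4 had an unadjusted p under 0.05 (4.7% of all genes), namely Aldh1l2, Chac1, Fgf21 and Sesn2. With the methods' t-test 0 passed and 3 had an unadjusted p under 0.05 (3.43%). The median difference was -0.05, against -0.00278 over all genes. Of the 36 genes, 29 lay below 0 (80.6%, against 51.5% of all genes), and 14 were lower in all 3 clones (38.9%, against 13.3%), while 5 were higher in all 3 (12.9% of all genes). With each array centred on its median, 26 lay below 0 (44.5% of all genes) and 10 were lower in all 3 clones (10.3%). Single arrays moved the description: without uninduced A5 the median was -0.0123 and without induced A3 it was -0.0238, with 22 genes below 0 in each case. The values of all 3 induced arrays fell outside those of the uninduced arrays in 4 genes on the low side, Fgf21, Psat1, Aldh1l2 and Slc7a11 (4.07% of all genes), and in 1 on the high side, Sdf2l1 (3.16%). Since the rule used this difference, nothing is read from these shares.

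All differences were small. The 95% intervals of the 36 genes lay between -0.63 and 0.44, which leaves out a 2-fold difference in each of them. These intervals, and the SE of every induction difference below, come from the fit without the block, so differences between clones count as spread. With the block the SE was 0.07 for Chac1 and for Xbp1, against 0.11 and 0.14 without it. For Fgf21 it was 0.07 in both fits. The clones contributed unequally, with medians of -0.10, -0.01 and -0.05 for A3, A4 and A5. Of the 36 genes, 28, 20 and 24 respectively lay below 0, against 9859, 8951 and 8824 of all 18193 genes. Technical signals also differed within the pairs of arrays: the poly-A control transcripts (dap, lys, phe, thr and trpn) were higher in the induced array by 0.29, 0.08 and 0.44, and the 18S signal differed by -1.64, 0.30 and -3.94, in the same order. In both the A4 pair differed least, as it did in the median of the genes. Their part in the lower values was not tested.

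**Figure D2:**
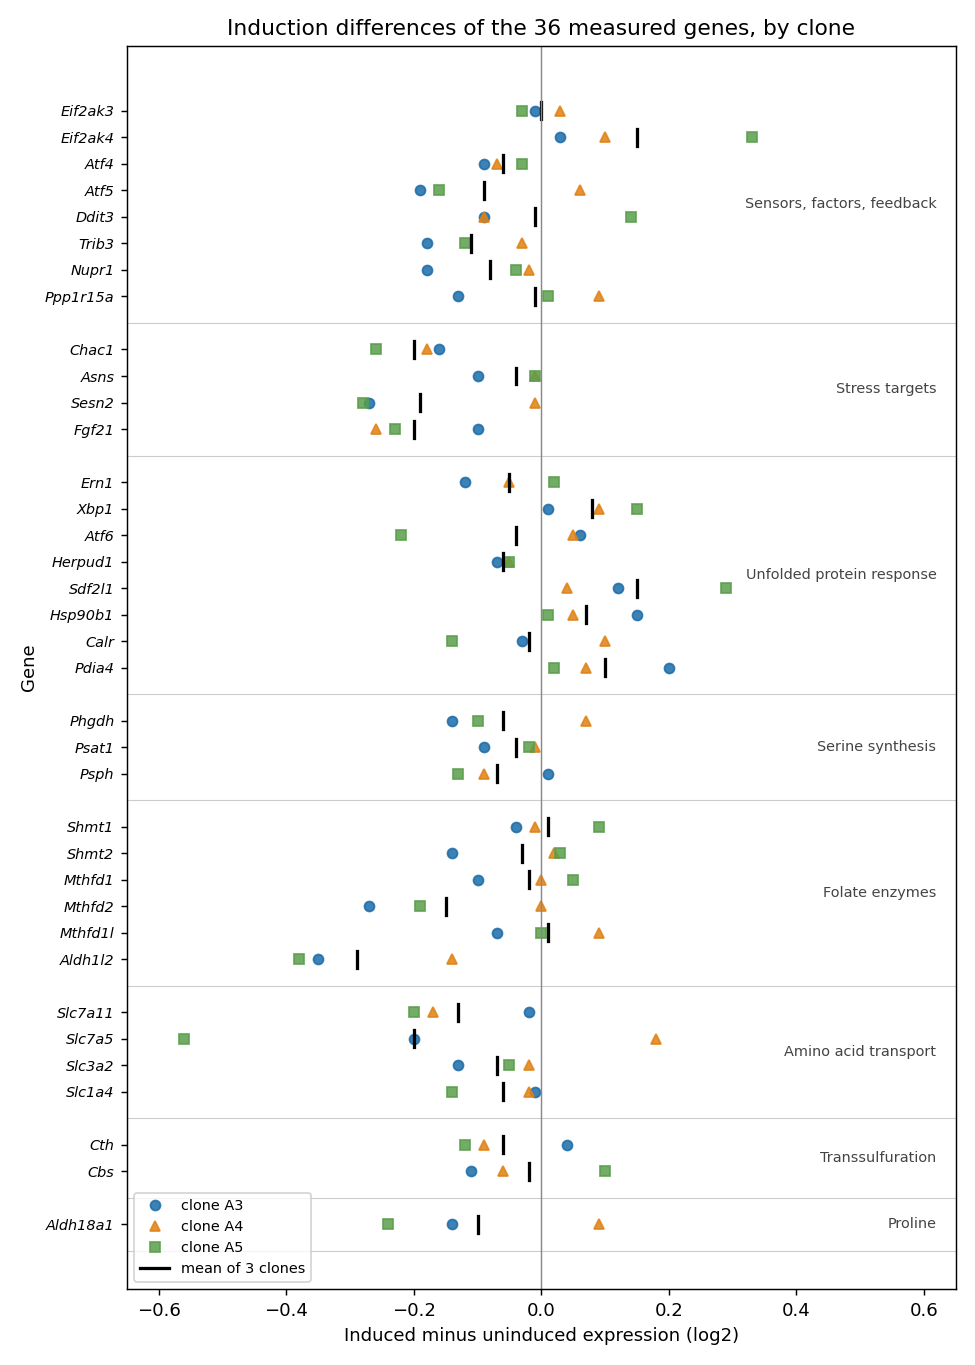
Induced minus uninduced expression (log2, horizontal axis) of the 36 measured genes, grouped by role, with 1 point per clone and a bar at the mean of 3 clones. Most bars lie just left of 0, between -0.29 for Aldh1l2 and 0.15 for Eif2ak4 and Sdf2l1, and the unfolded protein response genes lie on both sides.

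The sensor kinases and transcription factors of the ATF4 arm stayed near 0, with a median difference of -0.04 over 8 genes. Atf4 itself averaged 12.33 ± 0.03 without and 12.27 ± 0.06 with induction (SD, n = 3), and its 3 probe sets spanned -0.18 to 0.03. Eif2ak4, the GCN2 kinase, was at the upper end of the list. It had 7.13, 6.94 and 6.99 in uninduced A3, A4 and A5 and 7.16, 7.05 and 7.32 in induced cells, a difference of 0.15 ± 0.09 (SE), of which A5 gave 0.33. Groups overlapped, and the second probe set differed by 0.04. Ddit3, the pro-apoptotic factor CHOP, and the eIF2 phosphatase subunit Ppp1r15a each differed by -0.01. Trib3, a feedback inhibitor of ATF4, differed by -0.11 ± 0.08.

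The 4 measured stress targets had a median difference of -0.19, and 0 of them passed the test. All 4 had lower values in all 3 clones (13.3% of all genes), and 2 did on centred arrays (10.3%). Chac1, which degrades glutathione, had 9.83, 9.52 and 9.76 in uninduced and 9.67, 9.34 and 9.51 in induced A3, A4 and A5. Each clone was lower by 0.16 to 0.26, but the groups overlapped. The mean difference was -0.20 ± 0.11 (SE), and ranged from -0.29 without uninduced A4 to -0.12 without induced A4. Fgf21, a secreted hormone of metabolic stress, had 5.17, 5.20 and 5.26 in uninduced and 5.06, 4.94 and 5.03 in induced cells. Here the groups did not overlap, and the difference was -0.20 ± 0.07, at a level close to the median of the arrays. Sesn2, a leucine sensor upstream of mTORC1 named after its values were seen, had differences of -0.27, -0.01 and -0.28 for A3, A4 and A5. Asns, asparagine synthetase, averaged 12.20 ± 0.07 and 12.16 ± 0.12, and differed by -0.04 ± 0.08.

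The 8 unfolded protein response genes had a median difference of 0.02, and 0 passed the test. Of these, 4 had higher values in all 3 clones (12.9% of all genes), on deposited and on centred values. Whether the groups of genes differ from each other was not tested. Sdf2l1, an ER chaperone cofactor, had 8.02, 8.10 and 7.87 in uninduced and 8.14, 8.14 and 8.16 in induced A3, A4 and A5. Every induced value was above every uninduced one, and the difference was 0.15 ± 0.08, largest in A5 at 0.29. Xbp1 differed by 0.08 ± 0.14 and Hsp90b1, the ER form of HSP90, by 0.07 ± 0.07. Pdia4 had 8.24, 8.0 and 8.01 in uninduced and 8.44, 8.07 and 8.03 in induced cells. Its groups overlapped, and its difference of 0.10 ± 0.12 was -0.03 without the induced A3 array and -0.07 as the mean of its probe sets, since the second one differed by -0.24. Herpud1, an ER degradation factor, was the 1 gene of this group lower in all 3 clones, by 0.05 to 0.07.

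The serine synthesis genes lay close to 0. Phgdh, the first enzyme of the pathway, had means of 11.46 ± 0.05 and 11.40 ± 0.07 (SD, n = 3), Psat1 12.23 ± 0.02 and 12.19 ± 0.03, and Psph 10.63 ± 0.23 and 10.56 ± 0.16. The 3 genes differed by -0.07 to -0.04. Psat1 was the one whose groups did not overlap, by virtue of a very small spread, and its other probe set differed by 0.01.

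Among the folate enzymes the lowest induction difference of the list was found. Aldh1l2, the mitochondrial enzyme that oxidises formyl-folate with NADP, had 6.87, 6.76 and 7.04 in uninduced A3, A4 and A5 and 6.52, 6.62 and 6.66 in induced cells. The groups did not overlap, and A4 contributed least. The difference was -0.29 ± 0.09 (SE), or 1.22-fold lower, with -0.35, -0.14 and -0.38 in the 3 clones, at the gene's single probe set. Mthfd2, the mitochondrial dehydrogenase best known as an ATF4 target and named after its values were seen, also differed least in A4, with -0.27, 0.00 and -0.19 and a mean of -0.15 ± 0.10. The 4 other enzymes, Shmt1, Shmt2, Mthfd1 and Mthfd1l, differed by -0.03 to 0.01.

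All 4 amino acid transport genes lay below 0, with a median of -0.10. Slc7a5, the light chain of the large neutral amino acid transporter LAT1, had 10.25, 10.09 and 10.69 in uninduced and 10.05, 10.27 and 10.13 in induced A3, A4 and A5. The clones disagreed, at -0.20, 0.18 and -0.56, and the uninduced A5 array held the highest value. The mean difference was -0.20 ± 0.15. Its heavy chain Slc3a2 differed by -0.07 ± 0.07. Slc7a11, the cystine transporter, differed by -0.13 ± 0.07 and was the one gene with a mean under 5 (3.28). Cth and Cbs, the enzymes of transsulfuration, differed by -0.06 and -0.02, and the proline enzyme Aldh18a1 by -0.10.

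**Figure D3:**
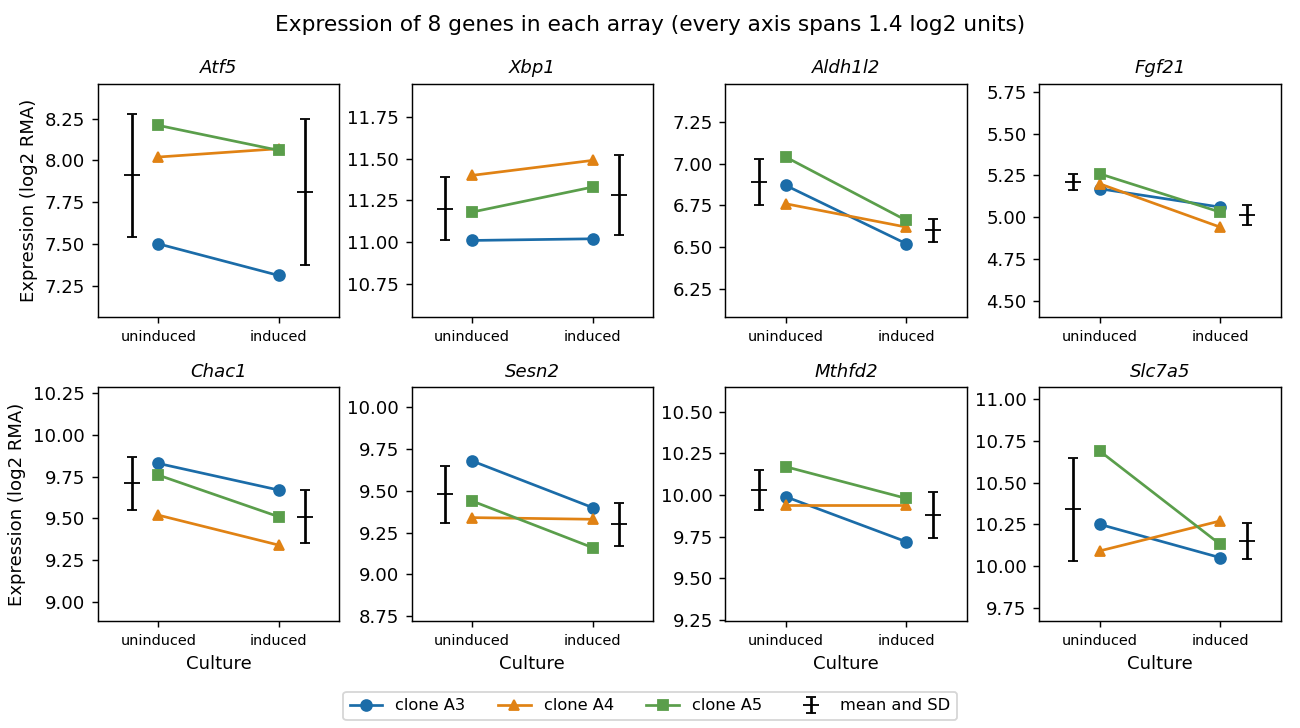
Expression (log2) of 8 genes in uninduced and induced cells, with 1 line per clone and the mean and SD of 3 arrays beside each group; every panel spans 1.4 log2 units. In Atf5 clone A3 lies below A4 and A5 at both times, and in Xbp1 the 3 clones are apart at both times. In Aldh1l2 and Fgf21 all induced points lie below all uninduced points, and in Slc7a5 the lines cross.

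The genes with the C/EBP-ATF element were set apart from the rest after their values had been seen. At the brightest probe set, all 8 measured genes with it were lower in all 3 clones, by 0.04 to 0.20 on average. On centred arrays 7 of the 8 were so. Other probe sets did not all follow: Asns, Nupr1, Herpud1, Slc1a4 and Slc7a11 each had another one with signs that differed between clones. The second probe set of Trib3 was lower in all 3 clones, and Chac1 and Fgf21 have 1 each. Slc7a11 was also dim, with a mean of 3.28. Of the 24 measured genes with a window that lacked the element, 5 were lower in all 3 clones (2 on centred arrays). Over all genes outside the list, 59 of 457 with the element (12.9%) and 1831 of 13963 without it (13.1%) were lower in all 3 clones. Of the other pathway genes below, 2 of 9 with the element (22.2%) and 4 of 56 without (7.14%) were lower in all 3 clones. On centred arrays these counts were 1 and 3. The mean difference was below 0 in 8 of these 9, in 22 of the 56 and in 248 of the 457. The median difference was -0.10 in the 8 listed genes with the element and -0.0246 in the 24 without it. It was -0.0519 in these 9 and 0.0251 in the 56, and -0.00964 in the 457 and -0.00217 in the 13963. No test was made, since both the list and this grouping followed the values, and nothing is read from these counts and medians.

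**Figure D4:**
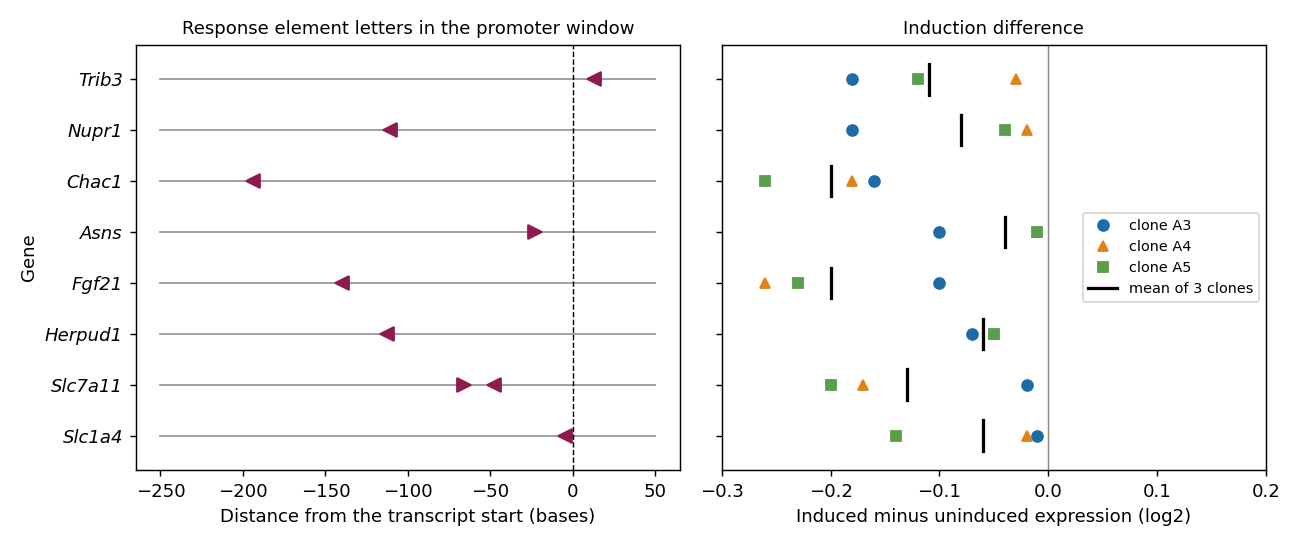
Left, position of the C/EBP-ATF element relative to the transcript start (bases) in the 8 measured genes that hold it, with arrowheads giving its strand relative to the gene. Right, induced minus uninduced expression (log2) of the same genes by clone at the brightest probe set, with a bar at the mean. Every point lies below 0, the bars lie between -0.20 and -0.04, and points of equal value cover each other.

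Other genes of the same pathways were examined from lists of 92 genes, of which 83 were measured. Their median induction difference was 0.00188. Of the 83, 40 lay below 0 (48.2%, against 51.5% of all genes) and 9 were lower in all 3 clones (10.8%, against 13.3%). With limma 0 passed the threshold, with or without the block. Without it 2 had an unadjusted p under 0.05, both higher (0.929% of all genes). Whether the lists below differ from all genes was not tested. Of 12 further stress genes 8 lay below 0, the lowest being Cebpb (-0.19 ± 0.16), which encodes a C/EBP partner of ATF4, and Jdp2 (-0.17 ± 0.17). Of 19 aminoacyl-tRNA synthetases 13 lay below 0, led by Eprs (-0.14 ± 0.11) and Aars (-0.11 ± 0.08). The remaining transporters and the cysteine, glutathione and proline genes were balanced, with 11 of 20 below 0, and Slc7a1 (-0.16 ± 0.11) and Slc43a2 (-0.14 ± 0.10) were the farthest from 0. Of 16 further unfolded protein response genes 12 lay above 0 and 7 had higher values in all 3 clones (12.9% of all genes), among them the ER co-chaperone Dnajc3 (0.14 ± 0.11) and the secreted ER protein Manf (0.13 ± 0.09). Of 16 further folate genes 12 also lay above 0, where 8819 of all 18193 genes lay.

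Mthfd2l, a mitochondrial dehydrogenase closely related to Mthfd2, had 6.49, 6.39 and 6.46 in uninduced and 7.0, 6.52 and 6.66 in induced A3, A4 and A5. All induced values were above all uninduced ones. The difference was 0.28 ± 0.12 (SE), with 0.51, 0.13 and 0.20 in A3, A4 and A5. Mthfd2 lay on the opposite side, with groups that overlapped. Tyms, thymidylate synthase, differed by 0.19 ± 0.07, at a dim probe set with a mean of 4.89. Each of these genes has 4 probe sets, of which only the brightest is given. They were the 2 genes with an unadjusted p under 0.05 in limma. That count was 1 with the mean of all probe sets of a gene. It was 0 with a minimum mean of 5 and 0 without clone A3. For the clones, limma called 1 of the 83 genes, against 3.09% of all genes. This was Mtr, the methionine synthase that takes its methyl group from folate. Mtr had 8.51 and 8.54 for A3, 7.91 and 7.88 for A4, and 8.21 and 8.28 for A5 (range 0.63, adjusted p = 0.0196). The clones did not overlap. The call was lost when any one of the A3 or A4 arrays was left out.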

How the data were processed

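Total RNA of 6 cultures was hybridised to Affymetrix whole-genome mouse arrays. The deposited values are log2 RMA summaries that the authors made with the affy package (versions not stated, nor which arrays were normalized together). Of 45101 probe sets 64 controls were set aside and 45037 tested without a filter. By the array's annotation, 34945 probe sets carry 1 symbol, 932 carry several and 9160 carry none. Groups came from the sample labels.

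Models were fitted over all probe sets with limma 3.58.1 in R 4.3.3 (lmFit, eBayes, two-sided, Benjamini-Hochberg, adjusted p under 0.05). They were also run on simulated data with added differences larger than the induction differences of the list. That run cannot show how well differences as small as these are found. Induction was compared without a block, after the study's methods, and clones by the F-test of the clone term beside induction. Once group means were removed, arrays of a clone correlated at 0.524, 0.376 and 0.210 (different clones, -0.407 to 0.0689), so the clone numbers pair the arrays. Alternatives were the block, the methods' t-test, an intensity trend, a mean of at least 5, centring, other probe sets, no induction term and leaving out arrays or clones.

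The members and lists were chosen with earlier results of these data known. Genes named were those the clone term called, Aldh1l2 and Fgf21, the 3 largest and 3 smallest induction differences, and, of the other pathway genes, those called and 2 per list with the largest difference. Other names were added after values were seen. Promoter windows are those of RefSeq. The precision is limited by the number of arrays.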

Additional observations from a re-analysis of the deposited data

How the results depend on the processing

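The count of listed genes called by the clone term, 1 as reported, was 7 with an intensity trend in the prior variance (Atf5, Chac1, Cth, Nupr1, Pdia4, Psph and Xbp1) and 4 with a minimum mean of 5 (Atf5, Nupr1, Psph and Xbp1). It was 2 when any probe set of a gene could be called (Atf5 and Xbp1), 2 without clone A5, 0 without clone A3, and 0 to 1 when arrays were left out one at a time, with 0 when either A3 array was missing. The clone contrasts called 2 genes as reported, 7 with that minimum and 9 with the trend. For the other pathway genes the clone term called 1 as reported, 15 with the trend, 7 with the minimum, 2 with any probe set, and 0 to 2 when arrays were left out one at a time. The clone counts thus depend on these settings, and so did the calls over the whole array. There the clone term called 2641 of 45037 probe sets with the trend and 1885 of 22874 with the minimum. It called 1022 of 45037 with centring and 977 of 45037 without the induction term. Dropping the induction term left both clone-term counts at 1, and centring, run for the listed genes only, left theirs at 1. For induction, 0 genes passed under every alternative run, the replicate block included, which left the median of the list at -0.0541. That median ranged from -0.0784 to -0.0123 when arrays were left out one at a time, and was over 1.5 times nearer 0 without uninduced A5 (-0.0123) or induced A3 (-0.0238). Leaving out a clone, an alternative chosen after seeing the data, gave medians of -0.0293 (A3), -0.0602 (A4) and -0.0509 (A5) for the list, and moved the median of the other pathway genes from 0.00188 to -0.0215 without A5. With 3 arrays per group and 2 per clone, small differences such as these are near the limit of what the arrays resolve.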
